A study of Mus musculus with 6 samples.

Results

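The cytosolic ribosomal protein genes are the genes for the proteins of the 60S and 40S ribosomal subunits. They were chosen by symbol and not by any measured value: protein-coding mouse genes named Rpl or Rps with a number and no suffix or one of a, x, l, al or l1, together with Rpsa, Rplp0, Rplp1 and Rplp2. The rule found 83 of the 56262 genes in the count table, of which 49 belong to the large subunit, 31 to the small subunit and 3 to the stalk of the large subunit. RNA-seq was performed on lungs of 3 R/R and 3 WT mice, all untreated and 8 weeks of age. R/R mice are homozygous for a CRISPR knock-in on the C57BL/6 background that replaces the lysines of the RNA-binding protein RBM47 which accept ISG15, a ubiquitin-like protein (K329R and K332R), and WT mice are their littermates. The knock-in is present in every cell of the animal. Lung tissue and not a sorted cell type was sequenced, so the lung values do not come from 1 cell type.

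Ribosomal proteins are made in near-equal numbers, because every ribosome holds 1 copy of almost each of them. Their mRNAs are among the most abundant of a cell, and most begin with a short run of pyrimidines (the 5′ terminal oligopyrimidine, or TOP, motif) through which mTOR signaling controls their translation. Many of these genes have been copied into the genome as processed pseudogenes, whose sequence can be nearly the same as that of the parent mRNA. In lung, as in other tissues, most ribosomal protein genes are expressed in all cell types, apart from a few tissue-restricted paralogs. Levels in bulk tissue cannot tell a smaller number of cells of a type apart from less RNA per cell.

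The sequence around the annotated start was searched for a run of pyrimidines. RefSeq sequence of GRCm38.p6 was at hand for 63 of the 83 genes, and 45 of them (71.4%) held a run of at least 8 pyrimidines on the gene's strand between 10 bases before and 50 bases after the annotated start. Among 27025 genes with sequence, 24.0% held one. The following 30-base windows show such a run for genes described below, 5′ to 3′ on the gene's strand. The longest run in the stretch searched is in capitals.
Rps12, chr10:23787181-23787210 (- strand): caccgccggCCTTTTCCCCTgccgccgccg
Rpl7a, chr2:26910791-26910820 (+ strand): aattccCTCTTCTTTCTTTCTCCagcagcc
Rps27, chr3:90213631-90213660 (- strand): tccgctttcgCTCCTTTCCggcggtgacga
Rps15, chr10:80292447-80292476 (+ strand): cagcccgtaCTTCCTTTTCCgagtaaccgc
Rplp2, chr7:141447636-141447665 (+ strand): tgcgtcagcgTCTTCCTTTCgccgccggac
Rpl22l1, chr3:28805499-28805528 (+ strand): cgcaagcccgTTCTCTTCCCacggctgcag

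Within the stretch searched, the runs were 11 bases long in Rps12 and Rps15, 17 in Rpl7a, 9 in Rps27 and 10 in Rplp2 and Rpl22l1. Relative to the annotated start, they began at −10 in Rpl7a, the edge of the stretch searched, −5 in Rplp2 and −2 in Rps27. The run of Rpl7a continues before that edge, in the lower-case pyrimidines next to the capitals, so it is longer than counted here. In Rpl22l1, Rps12 and Rps15 they began at 1, 8 and 25. A run in this stretch thus need not lie at the first base of the mRNA. In the whole stretch from 250 bases before to 50 bases after the start, CCGGAA, a core of sites that ETS-family factors bind, was found on either strand in 34 of the 63 genes (54.0%) against 16.7% of all genes. TATAAA was found in 6 (9.52%) against 9.77%. These are matches of letters in a fixed window and no binding was measured.

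The 6 libraries held 16501092 to 18141067 counted read pairs, and 17120 genes had enough counts to be tested. Levels are given as CPM, which relate a gene's counts to the scaled total of each lung, or as RPKM, which also divide by exon length, where genes are compared with each other. The genotypes were set against each other by the quasi-likelihood test of edgeR, and genes with a Benjamini-Hochberg adjusted p under 0.05, taken over all genes tested, count as called. The labels' tissue was checked by a list of 5 lung epithelial markers, which summed to between 23764 and 33206 CPM in a lung. Among them Scgb1a1, Sftpa1 and Ager, genes of club, type 2 and type 1 cells, were high in every lung. Rbm47 itself had 32.7, 33.5 and 34.1 CPM in R/R and 28.8, 30.5 and 34.4 CPM in WT lungs (log2 fold change 0.10, SE 0.08, adjusted p 0.66). Its level does not check the genotype, since counts per gene do not show the exchanged codons.

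Of the 83 genes, 79 passed the filter on low counts and 4 did not. The 4 are paralogs with a known restricted pattern or a twin elsewhere in the genome. Rpl10l, a testis paralog of Rpl10, had 0 counts in all 6 lungs, which allows up to 0.182 CPM in the lung with the fewest counts (3 counts of its total, for counting error only). Rpl39l, the testis paralog of Rpl39, had between 0 and 3 counts in a lung, Rpl3l, the striated-muscle paralog of Rpl3, between 0 and 6, and Rpl36al, the autosomal copy of the X-linked Rpl36a, between 4 and 10. All 4 were under 1 RPKM. Exons of Rpl36al overlap those of the same-strand gene Gm49383, on which 0 pairs were counted, and the counting left out pairs on both. The part of this overlap in the low counts of Rpl36al was not tested.

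Together the 83 genes took between 1.59% and 1.83% of the counts of a lung. The median level of the 79 tested genes was 102 RPKM, and 40 of them were at 100 RPKM or more. Rplp1, a stalk protein, was highest with 873 RPKM, followed by Rps15 (451 RPKM), Rpl36 (364 RPKM) and Rplp0 (346 RPKM). At the other end, Rpl24 had 1.83 RPKM, Rps10 1.92 RPKM and Rpl13a 5.49 RPKM. The proteins of these 3 genes are as much a part of each ribosome as the others. All 3 share sequence with other annotated genes: 72.5% of the 150-base windows of Rpl24's longest transcript, 44.2% of Rps10's and 52.7% of Rpl13a's occurred also in a transcript of another gene. Rpl10 and Rps6, at 227 and 217 RPKM, shared more (83.3% and 82.4%), but with pseudogenes such as Rpl10-ps3 and Rps6-ps4, which do not overlap their exons. For Rpl24, Rpl13a and Rps10 the sharing is largely with a same-strand gene whose exons overlap theirs, namely Gm28037, Gm45713 and RPS10-NUDT3. These held 336 of the 383 shared windows of Rpl24, all 473 of Rpl13a and all 326 of Rps10. On these overlapping genes 0 pairs were counted, and the counting leaves out pairs that fall on more than 1 gene. The part of these features in the low levels was not tested.

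**Figure D1:**
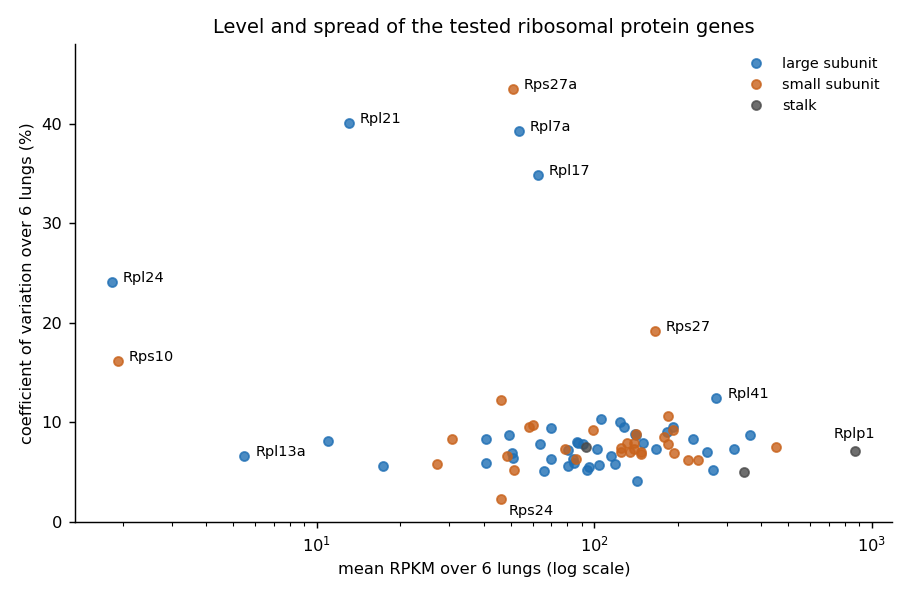
Level (mean RPKM over 6 lungs, log scale) and coefficient of variation over the 6 lungs (%) of the 79 tested ribosomal protein genes, 1 point a gene, colored by subunit. Most points lie near the median of 7.53%, with Rps27a, Rpl21, Rpl7a and Rpl17 above 30% and Rpl24, Rps10 and Rpl13a at the lowest levels.

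Most ribosomal protein genes varied little from lung to lung. The median coefficient of variation over the 6 lungs was 7.53%, and the lowest was 2.37% for Rps24. It was above 30% in 4 genes, namely Rpl17 (34.8%), Rpl7a (39.3%), Rpl21 (40.1%) and Rps27a (43.5%). The standard error of the log2 fold change had a median of 0.07 over these genes and of 0.11 over all genes tested.

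In R/R lungs, 71 of the 79 tested genes had a higher mean level than in WT lungs and 8 had a lower one. The shift was small: the median log2 fold change was 0.09, against 0.00454 over all 17120 genes tested. It was 0.14 without R/R replicate 3 and, separately, without WT replicate 3, and 0.06 without any 1 of the other lungs. The median was 0.08 for the 45 tested genes of the large subunit, 0.10 for the 31 of the small subunit and 0.12 for the 3 of the stalk. For 67 of the 79 genes the log2 fold change lay between 0 and 0.2. A log2 fold change above 0 was found for 51.2% of all genes tested and 52.8% of protein-coding genes.

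Of the 79 genes 1 was called, against 1.75% of all genes tested. No ribosomal protein gene was called higher (0.648% of all genes were), and Rpl17 was called lower (1.1% of all genes were). DESeq2 called 1 gene higher, Rpl41. At an unadjusted p of 0.05, 10 of the 79 genes were higher and 2 were lower, against 6.54% and 7.68% of all genes tested. Counted by samples, 7 genes (Rpl14, Rpl22l1, Rpl23a, Rpl30, Rpl41, Rps25 and Rpsa) were higher in every R/R lung than in every WT lung, and 2 (Rpl17 and Rps12) were lower. The same held for 9.17% and 9.5% of all genes tested, so 7 of 79 upward was close to the share over all genes and 2 of 79 downward was below it.

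**Figure D2:**
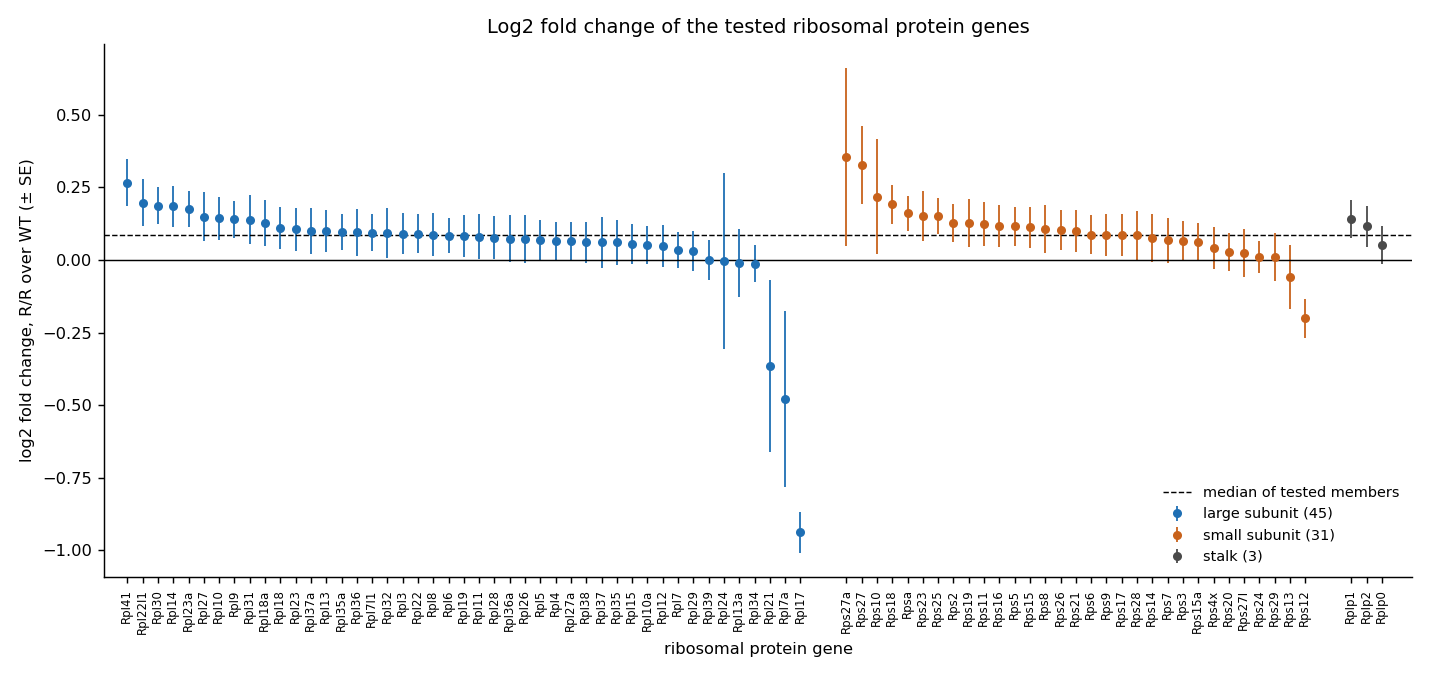
Log2 fold change (R/R over WT) with its SE from edgeR for each of the 79 tested ribosomal protein genes, grouped by subunit and sorted within it; the dashed line is their median of 0.09. Most genes sit between 0 and 0.2, Rpl17 stands at −0.94 with a small SE, and Rpl7a, Rpl21 and Rps27a have the widest SE.

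The summed level of these genes did not separate the genotypes. CPM summed over the 83 genes was 18327, 18392 and 16362 in R/R lungs and 15967, 16227 and 17736 in WT lungs. R/R replicates 1 and 2 were highest, R/R replicate 3 lay below WT replicate 3, and the groups overlapped. The ratio of the group means was 1.06, and it lay between 1.04 and 1.10 when 1 lung was left out. R/R replicate 1 or 2 held the highest value for 65 of the 79 genes, and WT replicate 1 or 2 the lowest for 64. WT replicate 3 was highest for 10 genes and lowest for 0.

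**Figure D3:**
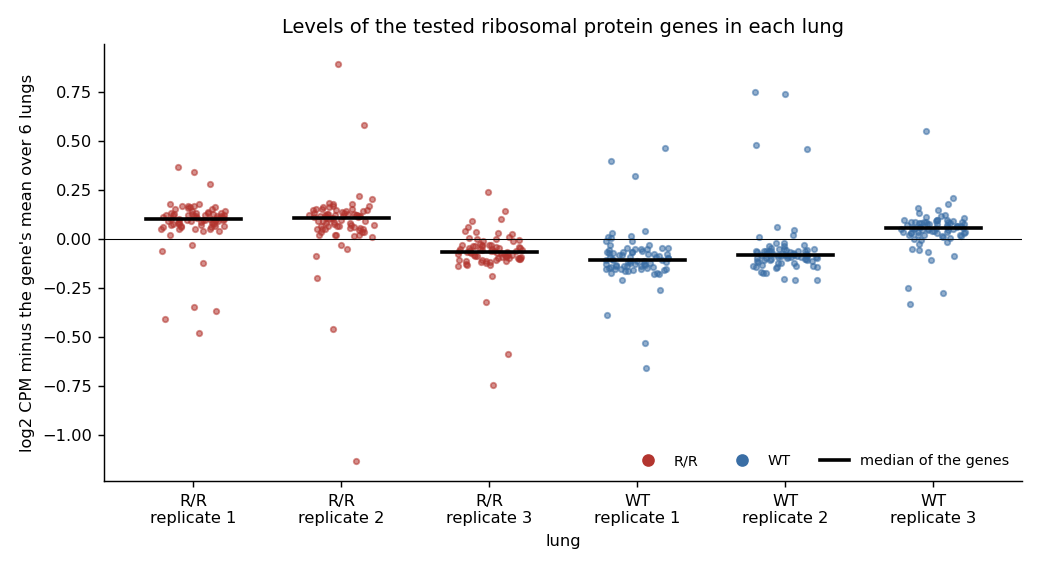
Log2 CPM of the 79 tested ribosomal protein genes minus each gene's mean over the 6 lungs, 1 point a gene and lung, with the median of each lung as a bar. The medians were 0.10, 0.11 and −0.06 in R/R replicates 1 to 3 and −0.11, −0.08 and 0.06 in WT replicates 1 to 3, so that the third lung of each genotype lies on the side of the other genotype.

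Other housekeeping lists had medians of like size. Of 77 tested genes for mitochondrial ribosomal proteins, 66 were higher and 11 lower in R/R lungs (median log2 fold change 0.08, none called), from Mrps18c (0.40) and Mrpl43 (0.35) to Mrpl37 and Mrpl44 (both −0.13). Of 75 nuclear-encoded subunits of oxidative phosphorylation, 68 were higher (median 0.10, none called), with Ndufb6 (0.30, SE 0.11, adjusted p 0.243) and Ndufb4 (0.26) at one end and Uqcrfs1 (−0.06) and Ndufa12 (−0.52, SE 0.24, adjusted p 0.368) at the other. The summed CPM of this list was 4797, 4812 and 4536 in R/R and 4287, 4467 and 4582 in WT lungs. Every R/R lung was above every WT lung for 21 of these 75 subunits and 13 of the 77 mitochondrial ribosomal protein genes. The same held for 7 of the 79 cytosolic ribosomal protein genes and 9.17% of all genes tested. Length moved with the result too. In the lowest quartile of exon length, 2211 of 3610 protein-coding genes were higher (median 0.05), and in the highest quartile 1616 of 3611 were (median −0.02). Ribosomal protein genes are short, and the part of length in their shift was not tested.

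Several cell type markers differed between the same lungs. The 6 B cell markers were all lower in R/R lungs and 4 were called, among them Ms4a1 (log2 fold change −0.99, SE 0.13, adjusted p 0.00675), and their summed level ranged from 78.0 to 108 CPM in R/R and from 147 to 186 CPM in WT lungs. The 6 T cell markers were lower with none called (21.8 to 28.7 against 33.6 to 45.7 CPM). Of the 5 erythroid markers, all were lower and Hba-a1 was called (1175 to 2218 against 2424 to 3217 CPM). Of 4 markers of dividing cells, all were lower, and Top2a and Mki67 were called (33.2 to 41.2 against 48.4 to 65.5 CPM). The 3 tested neutrophil markers were lower (24.97 to 45.8 against 29.97 to 103 CPM), as were 5 of the cardiac muscle list (57.3 to 109 against 79.3 to 230 CPM), with none called. Of 5 lung epithelial markers 4 were higher with none called, and they summed to between 29692 and 33206 CPM in R/R and between 23764 and 30339 CPM in WT lungs. The 3 endothelial markers were lower with none called (2766 to 2947 against 2871 to 3259.6 CPM). Of 3 plasma cell markers 1 was higher and 2 were lower, with none called (274 to 275 against 218 to 275 CPM). The thymus markers Rag1, Ptcra and Dntt had between 0 and 7 counts each in a lung. At an unadjusted p of 0.05, all 6 B cell, all 5 erythroid and all 4 dividing cell markers were lower by edgeR. So were 3 of the T cell, 3 of the neutrophil, 3 of the cardiac muscle, 1 of the endothelial and 1 of the plasma cell markers. Higher at this mark were 2 of the epithelial and 1 of the plasma cell markers. Over all genes tested, 7.68% were lower and 6.54% higher. The part of these cells in the levels of ribosomal protein genes was not tested.

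Rpl17, which encodes a large-subunit protein that lines the exit tunnel for the nascent chain, was the 1 gene called. It lies on chr18:74998558-75003381 (+ strand, GRCm38; ENSMUSG00000062328.8). It had 61.2, 57.5 and 52.5 CPM in R/R lungs and 104, 108 and 116 CPM in WT lungs. The R/R mean was 0.522 of the WT mean on the fitted scale, and the groups lay far apart. The means were 57.1 ± 4.35 and 109 ± 5.82 CPM (SD, n = 3 lungs each), with a log2 fold change of −0.94 (SE 0.07, edgeR adjusted p 0.000183). The exact two-sided permutation test gave p = 0.1, the smallest that 3 against 3 can give.

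The pseudogenes of Rpl17 had higher values in R/R lungs. The table holds 11 of them, and 40.0% of Rpl17's 150-base windows occur also in another annotated gene. Together they had 180.3, 189 and 161 CPM in R/R lungs and 126, 131 and 116 CPM in WT lungs, so every R/R lung was above every WT lung. They took 75.5 ± 1.02% of the summed counts of gene and pseudogenes in R/R and 53.2 ± 2.63% in WT lungs (SD, n = 3). With the gene and its pseudogenes added up, R/R lungs had 241, 246 and 213 CPM and WT lungs 230.2, 239 and 232 CPM. The sum overlapped between the genotypes, and its log2 fold change was −0.00 (SE 0.07, adjusted p 0.997). The call of Rpl17 is thus lost when its pseudogenes are counted with it.

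Nearly all pseudogene counts came from 2 copies. Rpl17-ps3 (chr12:67510756-67511311, + strand) had 64.5, 67.1 and 60.7 CPM in R/R and 24.7, 24.6 and 63.8 CPM in WT lungs. WT replicate 3 was at the R/R level and the other 2 WT lungs were well below it (log2 fold change 0.77, SE 0.28, adjusted p 0.226). Rpl17-ps10 (chr7:72648757-72649311, - strand) had 106, 109 and 90.2 CPM in R/R and 92.8, 97.0 and 43.1 CPM in WT lungs. Here WT replicate 3 was the low lung and the other WT lungs were near the R/R lungs (0.39, SE 0.22, adjusted p 0.473). The WT lungs thus differed from each other by more than 2-fold at both copies, while their Rpl17 levels were close together. These counts cannot tell transcripts of the gene and of its copies apart where the sequence is shared.

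**Figure D4:**
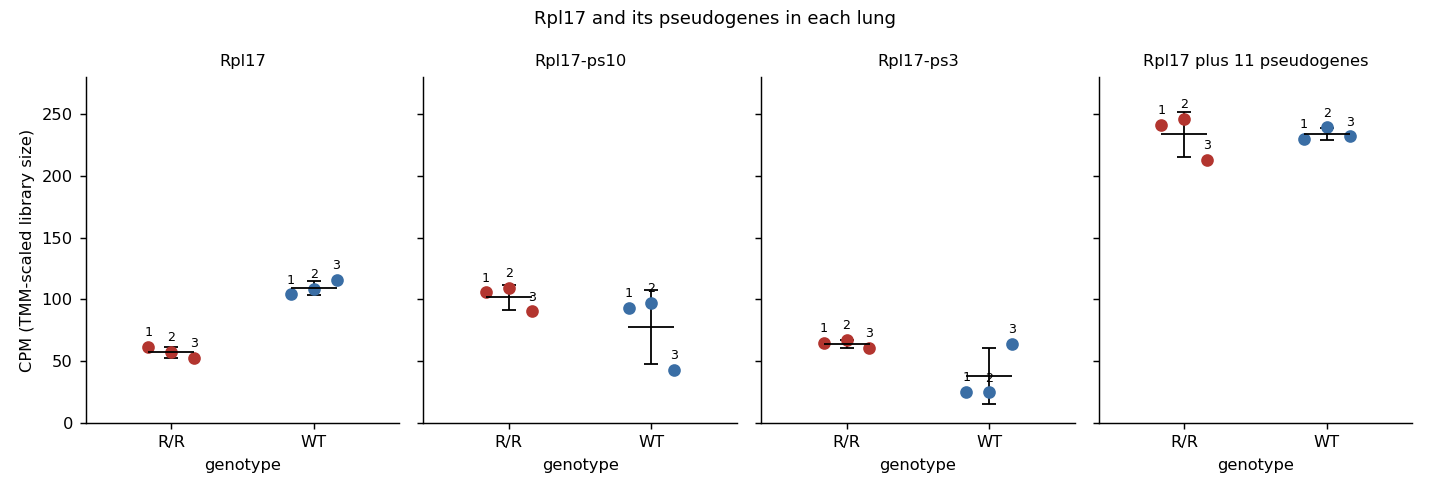
CPM of Rpl17, of its pseudogenes Rpl17-ps10 and Rpl17-ps3, and of Rpl17 summed with all 11 pseudogenes, for each of the 3 R/R and 3 WT lungs (points, numbered by replicate), with mean and SD as a dash and bars. Rpl17 separates the genotypes, WT replicate 3 is low for Rpl17-ps10 and high for Rpl17-ps3, and the sums overlap between 213 and 246 CPM.

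Rpl7a and Rpl21 had the next largest falls by value, and neither passed the test. Rpl7a, an rRNA-binding protein of the large subunit (chr2:26910764-26913318, + strand), had 114, 40.2 and 85.0 CPM in R/R and 110.5, 149 and 74.4 CPM in WT lungs. R/R replicate 2 was lowest and WT replicate 2 highest, and the groups overlapped (log2 fold change −0.48, SE 0.30, adjusted p 0.529). With 1 lung left out the value ran from −0.83 (without R/R replicate 1) to −0.16 (without R/R replicate 2). Rpl7a shares 65.2% of its windows with 15 other genes, and summed with them the value was −0.27 (SE 0.18, adjusted p 0.569). One of these, the pseudogene Gm5854, had 4.16, 15.8 and 10.3 CPM in R/R and 6.44, 5.19 and 14.6 CPM in WT lungs, high in the 3 lungs where Rpl7a was low.

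Rpl21, another large-subunit protein (chr5:146832890-146837032, + strand), had 29.9, 62.3 and 24.9 CPM in R/R and 38.8, 69.7 and 41.7 CPM in WT lungs. The second lung of each genotype was the high one (log2 fold change −0.36, SE 0.30, adjusted p 0.651). The value was −0.87 without R/R replicate 2 and −0.05 without WT replicate 2. Rpl21 has 15 same-name pseudogenes, with 36.4% of the summed counts, and shares windows with 20 genes in all. Summed with these its log2 fold change was −0.01 (adjusted p 0.985).

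Rps12, a small-subunit protein (chr10:23785183-23787275, - strand), had 113, 103 and 115 CPM in R/R and 121.5, 122 and 137 CPM in WT lungs. The R/R lungs all lay a little under the lowest WT lung, and the gene did not pass the test (log2 fold change −0.20, SE 0.07, adjusted p 0.189). It shares 79.3% of its windows with other genes, chiefly Rps12-ps3, which had 87.4, 80.7 and 79.3 CPM in R/R and 75.7, 73.5 and 75.4 CPM in WT lungs. Gene and 24 pseudogenes together gave −0.06 (SE 0.06, adjusted p 0.703), with overlapping groups. Rps13, the fifth of the largest falls by value, had 140.3, 127 and 99.2 CPM in R/R and 119.5, 122 and 140.2 CPM in WT lungs, which overlapped throughout (−0.06, SE 0.11, adjusted p 0.87). The other 3 lower genes, Rpl13a, Rpl24 and Rpl34, were at −0.01, −0.00 and −0.01.

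Of the genes with the largest rises by value, none passed the test. Rps27a, which encodes ubiquitin fused to a small-subunit protein (chr11:29545846-29548109, - strand), had 73.5, 174 and 91.0 CPM in R/R and 59.2, 131 and 74.5 CPM in WT lungs. Replicate 2 was the high lung in both genotypes (log2 fold change 0.35, SE 0.31, adjusted p 0.676), and without R/R replicate 2 the value turned to −0.10. Rps27, a zinc-finger protein of the small subunit (chr3:90212522-90213651, - strand), had 216, 193 and 169 CPM in R/R and 118, 161 and 182 CPM in WT lungs (0.33, SE 0.13, adjusted p 0.285). WT replicate 3 lay above R/R replicate 3, and the value was 0.17 without WT replicate 1 and 0.47 without WT replicate 3. Its retrogene Rps27rt had 35.9, 20.8 and 29.6 CPM in R/R and 83.6, 23.7 and 48.6 CPM in WT lungs, high in WT replicate 1 where Rps27 was lowest, and Rps27 summed with the genes that share its windows gave 0.11 (adjusted p 0.68).

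Rpl41, the smallest ribosomal protein (chr10:128548114-128549305, - strand), had 359.5, 354 and 340.3 CPM in R/R and 267, 276 and 333 CPM in WT lungs. Every R/R lung was above every WT lung, and the test missed the threshold (log2 fold change 0.27, SE 0.08, adjusted p 0.14). Gm10076, an annotated lincRNA that shares a stretch with Rpl41, had 18.0, 19.2 and 9.60 CPM in R/R and 31.5, 44.3 and 29.0 CPM in WT lungs and was called lower (−1.16, SE 0.22, adjusted p 0.0283). The sum of both gave 0.17 (adjusted p 0.338). DESeq2 called Rpl41 higher, with an adjusted p of 0.041, as did edgeR without WT replicate 3 (0.37, adjusted p 0.00915).

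Rps10, a small-subunit protein near the mRNA entry site (chr17:27630418-27636669, - strand), had 5.33, 4.12 and 4.83 CPM in R/R and 3.34, 4.08 and 4.86 CPM in WT lungs (0.22, SE 0.20, adjusted p 0.692). The value was 0.09 without WT replicate 1 and 0.35 without WT replicate 3. Of the summed counts of Rps10 and its 4 pseudogenes, 94.5% lay on the pseudogenes, chiefly Rps10-ps2 with 72.8, 76.9 and 72.0 CPM in R/R and 68.6, 67.4 and 68.4 CPM in WT lungs. The sum gave 0.11 (SE 0.06, adjusted p 0.438).

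Adding the counts of pseudogenes and other copies thus changed the values of few genes, which were among those with the largest differences. The table holds 298 same-name pseudogenes of 60 ribosomal protein genes, of which 122 had no count in any lung, 67 were tested and 0 were called by edgeR (5 were higher and 1 lower at an unadjusted p of 0.05). They held 10% or more of the summed counts for 10 genes. At least 10% of the windows were shared with another gene in 51 of the 83 genes, at least 50% in 14, and none in 15. When each gene was summed with the genes sharing its windows, 6 of the 79 values moved by more than 0.1, 77 had a size under 0.2, and 71 were above 0, of which Rpl24 (0.01) had been just below 0 alone. For the 29 tested genes with under 10% of their windows shared, 28 were higher in R/R lungs and none was called.

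**Figure D5:**
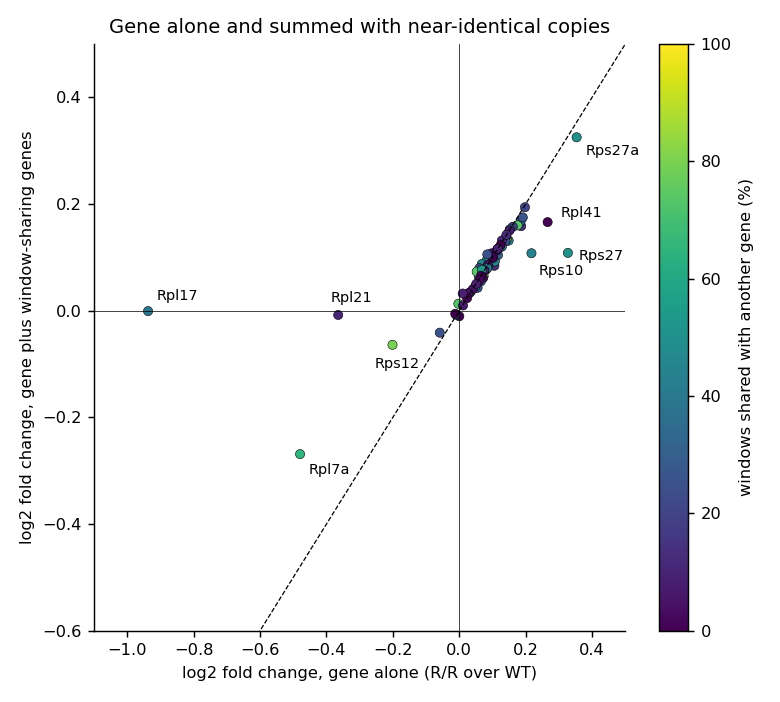
Log2 fold change (R/R over WT) of each of the 79 tested ribosomal protein genes alone (x axis) and summed with the genes that share its 150-base windows (y axis), colored by the percentage of windows shared; the dashed line marks equal values. Rpl17 moves from −0.94 to −0.00 and Rpl21 from −0.36 to −0.01, while most genes stay on the line.

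The stalk proteins, which bring elongation factors to the ribosome, showed no difference past the test. Rplp0 (chr5:115559467-115563727, + strand) had 602, 605 and 547 CPM in R/R and 544, 553 and 595 CPM in WT lungs (log2 fold change 0.05, SE 0.07, adjusted p 0.798). Rplp1 (chr9:61913284-61914542, - strand) had 464, 473 and 433 CPM in R/R and 391, 411 and 440.1 CPM in WT lungs (0.14, SE 0.07, adjusted p 0.357). Rplp2 had 212, 198 and 195 CPM in R/R and 195, 167 and 196 CPM in WT lungs (0.12, SE 0.07, adjusted p 0.515). In all 3 genes the genotypes overlapped. Rpsa, a small-subunit protein also known as the laminin receptor precursor, had 450.2, 468 and 437 CPM in R/R and 400.4, 389 and 423 CPM in WT lungs, which did not overlap (0.16, SE 0.06, adjusted p 0.24).

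The other 4 genes separated upward had differences of the same size. Rpl30 was at 0.19 (SE 0.06, adjusted p 0.197), Rpl14 at 0.18 (SE 0.07, adjusted p 0.25), Rpl23a at 0.18 (SE 0.06, adjusted p 0.206) and Rps25 at 0.15 (SE 0.06, adjusted p 0.289). Rpl23a and Rps25 overlap protein-coding genes on the opposite strand (Tlcd1, and Trappc4 with Ccdc84), as 13 of the 83 genes do. The counting did not use strand and left out pairs that fell on both partners. Of their windows, Rpl23a shared 73.2%, Rpl14 31.4%, Rpl30 14.0% and Rps25 8.66% with other genes. Rpl23a-ps3, a copy of Rpl23a, had 516, 301 and 236 counts in R/R and 186, 220 and 481 counts in WT lungs.

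Paralogs can replace their parent protein in some ribosomes, and their ratio to the parent within a lung does not depend on library scaling. Rpl22l1, the paralog of Rpl22, had 23.6, 24.3 and 22.3 CPM in R/R and 20.1, 20.5 and 20.5 CPM in WT lungs, with every R/R lung above every WT lung (log2 fold change 0.20, SE 0.08, adjusted p 0.289). The log2 ratio of Rpl22l1 to Rpl22 was −2.71 ± 0.02 in R/R and −2.82 ± 0.09 in WT lungs (SD, n = 3; exact permutation p = 0.1, 0.4 after adjustment over the 4 pairs tested). For Rps27l to Rps27 it was −2.26 ± 0.22 and −1.95 ± 0.18 (exact permutation p = 0.2, adjusted 0.4). For Rpl7l1 to Rpl7 it was −2.63 ± 0.07 and −2.69 ± 0.06 (exact permutation p = 0.4, adjusted 0.533), and for Rpl36al to Rpl36a −7.45 ± 0.40 and −7.50 ± 0.50 (exact permutation p = 0.9, adjusted 0.9). Read pairs on both Rpl36al and Gm49383 were left out of the Rpl36al counts. Of the parents, Rps27 shares 51.1% of its windows with other genes, Rpl36a 81.1%, Rpl7 8.38% and Rpl22 none. The part of this sharing in the ratios was not tested. With 3 lungs against 3, no paralog pair could go below 0.1. Rps27l, a p53-induced paralog, was itself at 0.02 (SE 0.08), Rpl7l1 at 0.09 (SE 0.06) and the X-linked Rps4x at 0.04 (SE 0.07).

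Rps15 and Rpl36, highest by RPKM after Rplp1, showed the same pattern of lungs. Rps15 had 306, 309.7 and 269.8 CPM in R/R and 274, 255 and 289 CPM in WT lungs (0.11, SE 0.07, adjusted p 0.527). Rpl36 had 156, 147 and 129 CPM in R/R and 125, 133 and 147 CPM in WT lungs (0.10, SE 0.08, adjusted p 0.664). In both genes R/R replicate 3 lay below WT replicate 3.

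Ribosomal genes outside the naming rule behaved alike in value. Fau, which encodes a small-subunit protein fused to a ubiquitin-like one, was at 0.14 (SE 0.06, adjusted p 0.349), Rps3a1 at 0.11 (SE 0.08, adjusted p 0.559) and Rack1, a scaffold on the small subunit, at 0.07 (SE 0.07, adjusted p 0.728).

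Genes that work with the ribosome gave counts on the same side. Of 11 genes grouped with the elongation factors, 10 were higher and none was called (median 0.09). Eef1e1 was at 0.45 (SE 0.15, adjusted p 0.191) and Eif5a2 at 0.29 (SE 0.11, adjusted p 0.26), whereas Eef2 was at 0.06 and Eef1a2, the muscle and neuron form, at −1.496 (SE 0.82, adjusted p 0.458), with WT replicate 3 far below the other WT lungs. Of 41 initiation factors and regulators, 29 were higher (median 0.03, none called), from Eif3i at 0.22 (SE 0.07, adjusted p 0.167) and Eif1 at 0.16 to Eif4ebp3 at −0.13 and Eif4g3 at −0.15 (SE 0.06, adjusted p 0.264). Of 24 other genes with a known TOP motif, 14 were higher (median 0.04, none called), with Snhg5 at 0.21, Pfdn5 at 0.17, Nap1l1 at −0.09 and Snhg8 at −0.18.

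Of 96 tested ribosome biogenesis genes, 65 were higher (median 0.05, none called), with Nhp2 of the box H/ACA particle at 0.30 (SE 0.14, adjusted p 0.366), Dimt1 at 0.23, Mdn1 at −0.16 and Noc3l at −0.19 (SE 0.09, adjusted p 0.359). Of 20 genes that control growth and the translation of TOP mRNAs, 12 were higher and 1 was called. That gene, Deptor, an inhibitor of mTOR, had 99.6, 104 and 91.6 CPM in R/R and 77.8, 73.8 and 81.8 CPM in WT lungs (log2 fold change 0.34, SE 0.07, adjusted p 0.0321). Its R/R lungs all lay above the WT lungs, and Rheb followed at 0.12. Mycn was lowest in this list at −0.46 (SE 0.19, adjusted p 0.293), and Tia1, a protein that binds TOP mRNAs, was at −0.24 (SE 0.08, adjusted p 0.16).

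Of 20 targets of p53, which is stabilized when free ribosomal proteins bind MDM2, 10 were higher and 10 lower (median 0.02, none called). Btg2 was at 0.27 (SE 0.06, adjusted p 0.0537), Gdf15 at 0.33 (SE 0.30, adjusted p 0.684), Eda2r at −0.25 (SE 0.18, adjusted p 0.605) and Gtse1 at −0.46 (SE 0.26, adjusted p 0.468). At an unadjusted p of 0.05, edgeR gave 9 higher and 0 lower of the mitochondrial ribosomal proteins and 15 and 0 of the oxidative phosphorylation subunits. It gave 2 and 0 of the genes grouped with the elongation factors, 2 and 1 of the initiation factors and 2 and 0 of the other TOP genes. For the biogenesis genes it gave 3 and 1, for the genes that control growth and TOP translation 1 and 2, and for the p53 targets 1 and 1.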

How the data were processed

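Libraries from the lungs of 3 R/R and 3 WT mice were made with a SMARTER mRNA-Seq kit and sequenced from both ends. The sources name both Trizol and RNeasy for extraction. After alignment with HISAT2 2.1.0 to GRCm38 (mm10), the authors counted read pairs per gene with featureCounts 2.0.1 (GENCODE M25), ignoring strand and leaving out multi-mapping pairs and pairs on several genes, and the deposited values are these counts without normalization. One deposited column was recorded here as an estimated count, only because an automatic check misread the header line. Its values, like the others, are whole and were used unrounded. DESeq2 is named by the submitters' processing notes and edgeR by the paper's supplement.

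Symbols and coordinates came from GENCODE M21 by gene identifier (55227 of 56262 matched). Calculations used R 4.3.3, edgeR 4.0.16 (filterByExpr with a minimum count of 10 and a total of 15, TMM, glmQLFTest, Benjamini-Hochberg), limma 3.58.1 and DESeq2 1.42.0, tested on simulated data. Permutation tests used log2 CPM with a prior count of 0.5. Read-length windows of 150 bases were compared among annotated transcripts. Promoter windows came from RefSeq (GRCm38.p6). Library totals were 16501092 to 18141067, where 3 counts are at most 0.182 CPM. Replicate lungs differed by more than sampling noise (chi-square per degree of freedom 5.22 to 8.31).

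The members, lists and tests were chosen with earlier results of these data known. Genes named are those called, the 5 largest rises and falls above a mean log2 CPM of 1, the stalk genes, Rpsa, suffixed paralogs, the 3 highest and 3 lowest by RPKM, the 3 with the highest pseudogene share, Rbm47, and the ends and called genes of each list. Rpl14, Rpl23a, Rpl30, Rps25, Rps24, Rpl34, Gm5854, Gm10076, Rps27rt and the single pseudogenes were named after their values were seen. The ends of the marker lists were not printed, and some genes under this rule are not reported here. The alternatives were DESeq2, limma-voom, library size without TMM, TMM without the members, no filter, 1 CPM in 3 lungs, a replicate block, leave-one-out, thresholds of 0.01 and 0.1, gene plus pseudogenes and, chosen after seeing the data, gene plus window-sharing genes.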

Additional observations from a re-analysis of the deposited data

How the results depend on the processing

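The median log2 fold change of the ribosomal protein genes lay between 0.06 and 0.14 with 1 lung left out, and its sign held under every alternative run. The ratio of summed CPM, recomputed for both scaling alternatives (1.06 in each) and with 1 lung left out (1.04 to 1.10), stayed above 1. Rpl17 was called lower under all of them except when summed with its pseudogenes (−0.00, 0 genes called lower) or with window-sharing genes (−0.00, 0 called lower), and lay between −0.99 and −0.88 with 1 lung left out. Members called higher were 1 with DESeq2 (Rpl41), 3 without a filter (Rps27a, Rps27 and Rpl41), 1 with the replicate block (Rps27a) and 0 to 1 with 1 lung left out. Members called lower were 3 without a filter (Rpl17, Rpl7a and Rpl21) and 1 with any lung left out. Without a filter edgeR gave Rpl7a a standard error of 0.07, against 0.30 with the filter. The cause was not tested. Over all genes, 199 were called higher and 342 lower with DESeq2, 455 and 654 without a filter, 168 and 278 with the replicate block, 15 and 25 at a threshold of 0.01, and 207 and 341 at 0.1, against 111 and 189. With 1 lung left out they were 23 to 261 and 40 to 360, with the low end for higher calls without WT replicate 1 and the high end without WT replicate 3. Over all genes, same-numbered lungs deviated with correlations of −0.01, −0.00 and −0.01. With 3 lungs a group, these values cannot settle whether the numbers pair the lungs. With the replicate block the median was 0.09 and Rps27a was called (0.34, adjusted p 0.0169). Values near 0 changed sign. Rpl24 turned to 0.00869 with limma-voom, 0.00204 without a filter, 0.00589 with the replicate block and 0.0131 with window-sharing genes. With 1 lung left out, the values ranged from −0.137 to 0.265 for Rpl24, −0.0759 to 0.0447 for Rpl13a, −0.172 to 0.0707 for Rps13, −0.102 to 0.753 for Rps27a, −0.00715 to 0.111 for Rps4x and −0.0550 to 0.0842 for Rps27l. The sign changed without R/R replicate 2 for Rps27a and Rps4x and without WT replicate 1 for Rps27l. The values of Rpl24 rest on 25 to 42 counts a lung.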
